A study of Mus musculus with 18 samples.

Results

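NFIA and NFIB summits were followed at 5 kinase genes of the mouse through the formation of medulloblastoma, a tumor of the cerebellum. The genes were the salt-inducible kinases Sik1, Sik2 and Sik3 and the leucine zipper kinases Map3k12 (DLK) and Map3k13 (LZK), 5 of 20661 protein-coding autosomal genes (RefSeq gene IDs 17691, 235344, 70661, 26404 and 71751 in this order). Sik1 and Map3k13 were chosen by their numbers of summits in these same libraries, which were lower in tumors than in the earlier stages, and the other genes because they belong to the same families. Differences between tumors and the earlier stages at these genes are therefore described without a test. A mean of at least 2 summits per preparation was asked of a gene before testing, and 4 of the 5 genes passed, with Map3k12 left out. In all, 8587 genes were tested.

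In CUT&Tag, the assay used, a transposase is brought by an antibody to the chromatin around a protein, so that sequenced fragments pile up where the protein sits. The stages were granule neuron progenitors (GNPs) at postnatal day 7, hyperplasia (PNC in the protocol) at postnatal day 28, and medulloblastoma cells from adult cerebellum, all purified on a Percoll gradient and used at 100000 cells per library. The design text names a genetically engineered mouse model and a cell line. The alleles of the model are not given in the sources used here, and the cell line was not analysed here. Every stage comprised 3 preparations with 1 NFIA and 1 NFIB library each, 18 libraries in all. The labels do not tie preparations to animals, and the spread between them, on which the p-values rest, may be technical only. Stage and age cannot be told apart.

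A summit is the position of the highest signal in a peak, and its score is the −log10 value the authors' peak caller gave it. The lists held 49948 to 385466 summits per library, and the read depth behind them is unknown. To put the libraries on one footing, the 30000 highest-scoring autosomal summits of each were kept, here called top summits, and each was given to the nearest gene span within 100 kb. The score of the last summit kept ran from 3.46 to 9.84. The second hyperplasia NFIA library stood apart, since 20.4% of its top summits shared the score of the last one kept and were drawn at random among ties. Targets were taken from the sample titles, with which the deposited data names disagree in 6 of 18 libraries. The NFIA and NFIB libraries of a preparation were also paired by title. In most libraries of every stage the number in the data name differs from the preparation number used here. GNP and hyperplasia preparations 1 and 2 share a title date and preparations 3 another, while the 3 tumor preparations have dates of their own, so that title date and tumor stage cannot be told apart.

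Salt-inducible kinases belong to the AMPK-related family. They are switched on by the kinase LKB1 and held in check by protein kinase A, and they keep CRTC coactivators and class IIa histone deacetylases in the cytoplasm by phosphorylating them. Sik1 is itself a target of CREB in many cells. Map3k12 and Map3k13 sit at the top of a JNK cascade that carries stress and injury signals in axons, and the E3 ligase Mycbp2 limits the level of DLK. NFIA and NFIB are DNA-binding proteins that promote the differentiation of cerebellar granule neurons and of glia.

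At Sik2 and Map3k12 the summits gathered at a start site, and the sequence before each start is shown because most of the summits of these genes lay there (15 of 19 at Sik2 and 9 of 13 at Map3k12). The sequences are the 250 bases upstream of a start, from RefSeq with build GRCm38.p6 (mm10), 5′ to 3′ on the minus strand of each gene. Capitals mark the bases at which a top summit of any library lay.
Sik2, chr9:51009074-51009323, minus strand: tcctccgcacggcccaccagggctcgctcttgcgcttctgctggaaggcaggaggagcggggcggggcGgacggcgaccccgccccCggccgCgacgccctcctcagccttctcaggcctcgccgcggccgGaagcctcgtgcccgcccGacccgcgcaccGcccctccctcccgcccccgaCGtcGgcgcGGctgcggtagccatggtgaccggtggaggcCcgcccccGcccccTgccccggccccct
Map3k12, inner start, chr15:102510701-102510950, minus strand: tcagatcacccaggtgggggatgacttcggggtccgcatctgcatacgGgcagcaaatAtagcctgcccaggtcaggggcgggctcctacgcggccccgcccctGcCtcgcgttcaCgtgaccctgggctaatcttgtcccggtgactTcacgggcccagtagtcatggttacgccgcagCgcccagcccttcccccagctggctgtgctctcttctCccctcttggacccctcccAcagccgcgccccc
Both stretches were rich in C and G, and the summits were spread along them rather than stacked on 1 base. The Sik2 window of 300 bases, these 250 and the 50 that follow the start, held 17 top summits from 17 of the 18 libraries, from position -182, counted in bases from the start, to position 10, with a median of -67. The Map3k12 window held 11 top summits from 10 libraries, from position -202 to 19, with a median of -102.

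The palindromic NFI motif, TTGGC followed after 5 unspecified bases by GCCAA, was searched on both strands, together with either arm alone, every full match being also a match to both arms. None of these strings occurred in the Sik2 window, the Sik3 window or either window of Map3k12. The Map3k13 window, at an inner start, held 1 single arm and no full motif. Of 31396 autosomal windows of 300 bases, 46.7% held an arm and 0.0382% the full motif. No top summit lay in the windows of Sik3, Map3k13 or the outer start of Map3k12.

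Sik1, the salt-inducible kinase whose own transcription responds to cAMP signals, had 12 top summits in each of the 3 GNP preparations, 12, 11 and 12 in hyperplasia, and 7 in each of the 3 tumor preparations. GNP and hyperplasia preparations overlapped, and every tumor preparation lay below all of them. The mean was 12 in GNPs, 11.7 ± 0.577 in hyperplasia and 7 in tumors (SD, n = 3 preparations). Tumor against GNP, the difference was -0.74 ± 0.07 (SE) in log2(summits + 0.5), a scale on which genes with few summits appear to change less than they do. Among all genes tested, 5.90% had every tumor preparation below every GNP preparation and 3.73% every tumor preparation below every hyperplasia preparation. The gene was chosen for this difference, and nothing is read from it against that background.

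The equal sums, on which the SE of 0.07 rests, hid a spread between the libraries that made them up. Tumor against GNP, the difference was -0.66 ± 0.23 (SE) with NFIA libraries alone and -0.80 ± 0.25 with NFIB libraries alone. Single GNP libraries held 5 to 7 top summits of Sik1. The NFIA libraries of tumors held 3, 5 and 3, and the NFIB libraries 4, 2 and 4. The highest tumor library thus reached the lowest GNP libraries.

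Map3k13, a kinase that activates the JNK pathway in neurons, had 10, 11 and 13 top summits in GNP preparations 1, 2 and 3, then 7, 8 and 8 in hyperplasia, and 4, 5 and 5 in tumors. The 3 stages did not overlap at all. Of all genes tested, 5.83% had every hyperplasia preparation below every GNP preparation. For tumors it was 5.90% against GNPs and 3.73% against hyperplasia, and the share with all 3 stages apart was not counted. Means were 11.3 ± 1.53 in GNPs, 7.67 ± 0.577 in hyperplasia and 4.67 ± 0.577 in tumors (SD, n = 3 preparations). On the log2 scale tumors differed from GNPs by -1.19 ± 0.13 (SE) and from hyperplasia by -0.66 ± 0.13, given as a description. Tumor contrasts at Sik1 and Map3k13 share their tumor preparations, and both GNP contrasts share the GNP preparations. Over all genes, 0.245% passed the limma test (adjusted p under 0.05) for tumors against GNPs, 0.14% higher and 0.105% lower in tumors. Against hyperplasia 0.0582% passed, 0.0116% higher and 0.0466% lower, and since these contrasts chose the members, nothing is read from those shares.

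**Figure D1:**
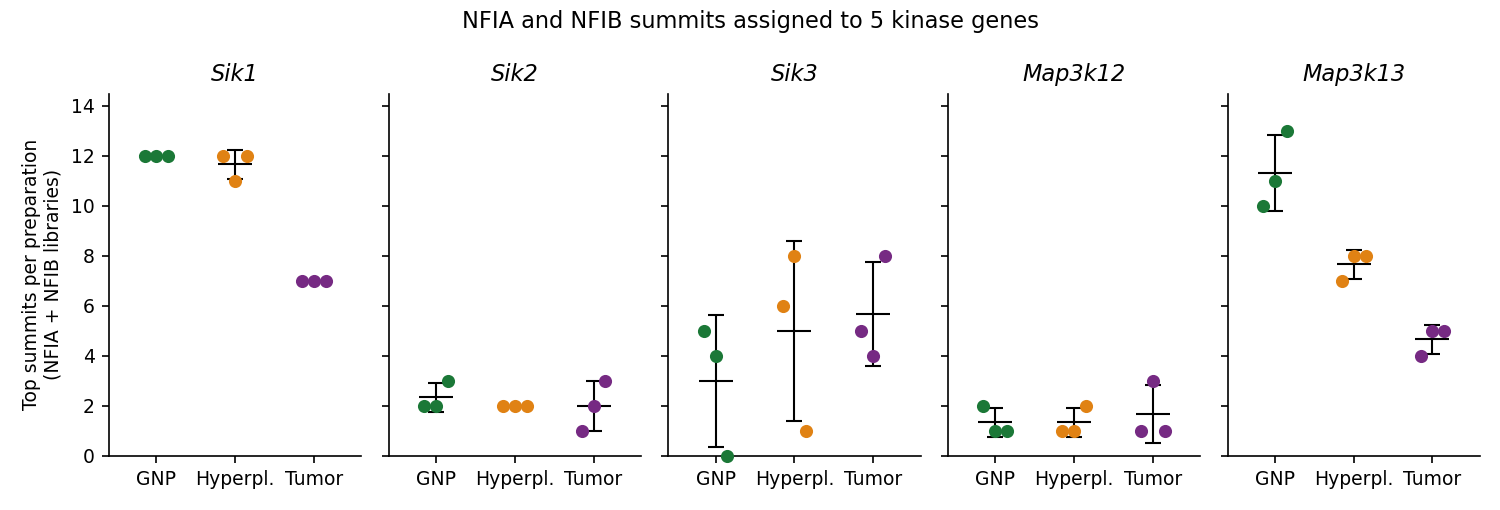
Top summits per preparation (NFIA and NFIB libraries summed, y axis) at each of the 5 kinase genes in GNPs, hyperplasia and tumors; each point is 1 of 3 preparations, and the bars show the mean and SD. Sik1 sits at 11 to 12 before the tumors and at 7 in them, Map3k13 steps down through the 3 stages, and Sik2, Sik3 and Map3k12 overlap between stages.

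The other 3 genes did not show this pattern. Sik2, the salt-inducible kinase with its single region at the start site (chr9:50889644-51009132), had 2, 2 and 3 top summits in GNPs, 2 in each hyperplasia preparation, and 1, 2 and 3 in tumors. Map3k12, the closest relative of Map3k13 (chr15:102497647-102517004), had 2, 1 and 1 in GNPs, 1, 1 and 2 in hyperplasia, and 1, 3 and 1 in tumors. Stages overlapped at both genes, and values this small move by a large share with 1 summit. The span of Sik2 overlaps that of Ppp2r1b, and the span of Map3k12 those of Pcbp2 and Tarbp2. A summit inside overlapping spans was given to the gene with the shorter span.

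Sik3, the salt-inducible kinase with the longest span of the 3 (chr9:46012820-46224194, 211375 bp), had 5, 4 and 0 top summits in GNPs, 6, 8 and 1 in hyperplasia, and 5, 4 and 8 in tumors. The low values were those of the third GNP preparation and the third hyperplasia preparation, which share a title date. Among preparations of the first date alone, GNPs had 5 and 4 and hyperplasia 6 and 8. Of those 8, 6 came from the second hyperplasia NFIA library, the one with many ties, and 5 of the 6 lay outside any region. Tumor against GNP, the difference was 1.36 ± 1.02 (SE) in log2(summits + 0.5), and 0.26 without GNP preparation 3. Tumor against hyperplasia it was 0.45, and -0.32 without hyperplasia preparation 3. Its 5 regions, all inside the gene, were each hit in at most 4 of the 6 libraries of any stage. One of them, chr9:46023529-46024021, was hit in 0 GNP, 4 hyperplasia and 4 tumor libraries, while 3 GNP libraries listed a summit there below their top 30000.

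Single sites were then compared. Top summits of all libraries were widened by 100 bp on each side and merged, and the 41986 merged regions that 3 or more libraries hit were kept. Of these, 19 belonged to the 5 genes: 6 to Sik1, 1 to Sik2, 5 to Sik3, 1 to Map3k12 and 6 to Map3k13. A region was called lost where at least 5 of the 6 libraries of the earlier stage and at most 1 of the 6 of the later one held a top summit. Over all regions 2.52% were lost in tumors against GNPs, 1.08% in tumors against hyperplasia and 2.78% in hyperplasia against GNPs. At the 5 genes 1 region was lost in each of these contrasts, all of them at Map3k13, and 0 were gained, against 2.27%, 1.21% and 2.16% gained over all regions. No region of Sik1 met this criterion, although its total was lower in every tumor preparation. The place of the losses depended on how many summits were kept. With 15000 per library the 1 region lost in tumors against GNPs was at Sik1 and 0 were at Map3k13, and with all summits 3 were at Sik1, 1 at Sik3 and 0 at Map3k13. In these settings 2.74% and 1.07% of all regions were lost, with 7 and 74 regions at the 5 genes.

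**Figure D2:**
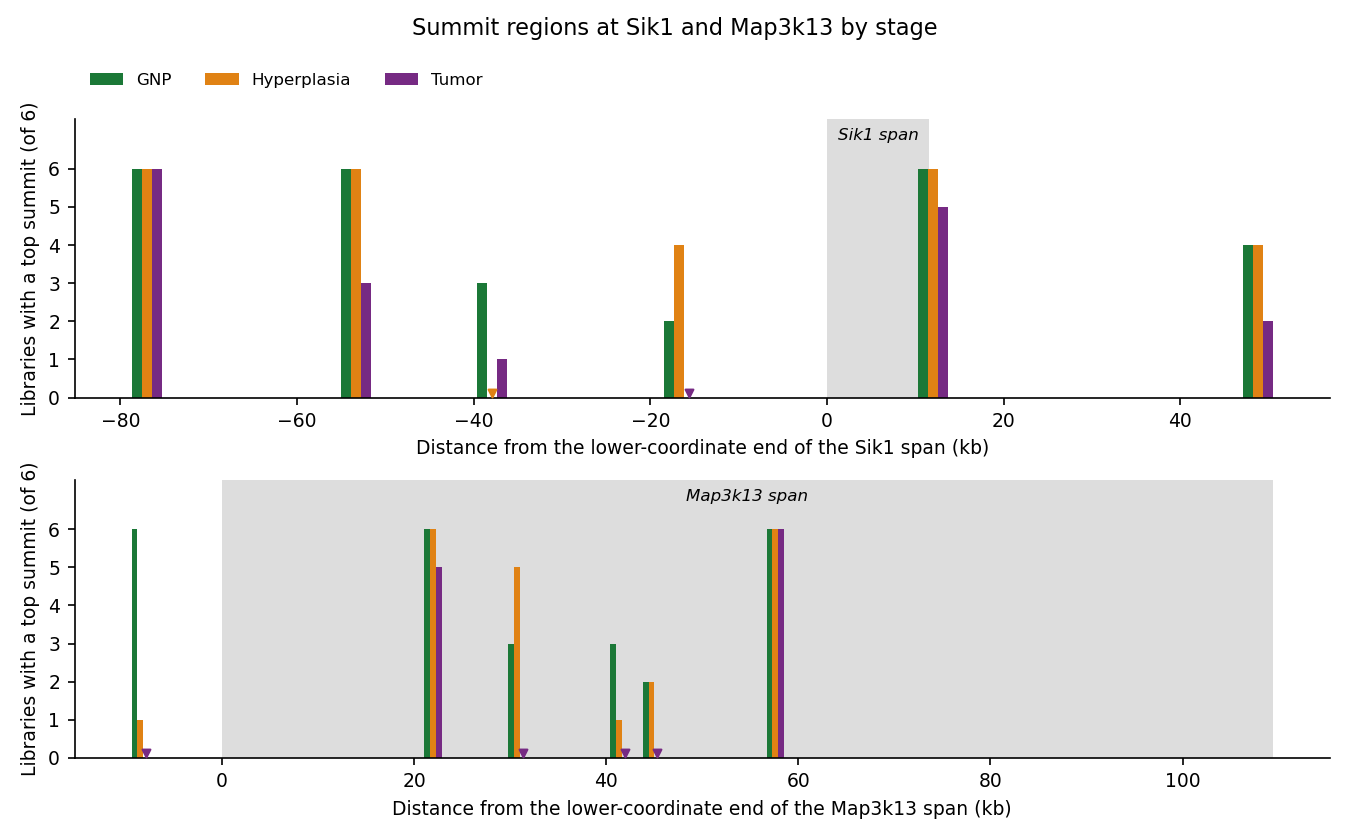
Number of libraries (of 6 per stage, y axis) with a top summit in each region at Sik1 and Map3k13, against the distance in kb from the lower-coordinate end of the gene span (x axis, span shaded); a triangle marks 0 libraries. The farthest Sik1 region and the last Map3k13 region are hit in 6 of 6 libraries of every stage, while 4 of the Map3k13 regions reach 0 in tumors.

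Sik1 is short (chr17:31844248-31855804, 11557 bp) and stands alone, with Cryaa 162518 bp away on the lower side and Hsf2bp 88965 bp away on the higher side. Most of its summits lay outside its span, and that they act on Sik1 is an assignment by distance only. The farthest region, chr17:31766864-31767579, lay 77027 bp below the span. It was hit in all 18 libraries, and its best summit ranked between 90 and 962 in the list of every library. Since lists differ in length, ranks are given to place a site within its own list and not as a measure of change. Of 6132 regions hit in all 18 libraries, 109 (1.78%) ranked at least as high in their worst library. The strongest site assigned to Sik1 was thus near the top of every list in all 3 stages.

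The lower tumor total of Sik1 against GNPs was spread over its regions. The farthest had little part in it, with 7 top summits in GNPs, 9 in hyperplasia and 6 in tumors. It was hit in 6 of 6 libraries of every stage, and the second GNP NFIB library held 2 of the 7. The region at chr17:31790590-31791199, 53354 bp below the span, was hit in 6 GNP, 6 hyperplasia and 3 tumor libraries. Of the 6 tumor lists, 5 held a summit there at any score. All 3 tumor hits were NFIA libraries by title, and the third tumor NFIB library missed the top 30000 narrowly, at rank 30043. The data names of the third tumor NFIA and the first tumor NFIB library disagree with the title on the target. The region chr17:31827348-31827717 was hit in 2, 4 and 0 libraries, and chr17:31892801-31893203 in 4, 4 and 2. The region chr17:31806120-31806413 was hit in 3, 0 and 1. At the higher-coordinate end of Sik1 itself, chr17:31855688-31856812 was hit in 6, 6 and 5 libraries, with 9, 8 and 6 top summits. Summed over libraries, Sik1 had 36 top summits in GNPs, 35 in hyperplasia and 21 in tumors.

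Map3k13 (chr16:21824056-21933439) had 6 regions, of which 2 were hit in at least 5 libraries of every stage, while the other 4 held no top summit in tumors. The region chr16:21881262-21881999, 57574 bp into the gene, was hit in all 18 libraries. The region chr16:21845812-21846201 was hit in 6 GNP, 6 hyperplasia and 5 tumor libraries. There the best summit lay within the first 0.334% to 7.79% of the list in GNPs, 0.252% to 6.35% in hyperplasia and 3.85% to 27.8% in the 5 tumor lists that held it, so that the stages overlapped. The 3.85% was rank 14428 in the longest list, that of the second tumor NFIA library. By rank the best summit lay at 525 to 5892 in GNPs, 255 to 4002 in hyperplasia and 5287 to 15582 in tumors. Only the third tumor NFIB library (5287) was inside the GNP range, and the first tumor NFIA library listed no summit there.

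The region lost in tumors against GNPs was chr16:21815152-21815910, 8525 bp below the span. It was hit in 6 GNP, 1 hyperplasia and 0 tumor libraries, so it met the criterion for hyperplasia against GNPs as well. In GNPs its best summit ranked 7541 to 27903, inside the top 30000 in every library but not by much in the lowest. In hyperplasia the second NFIB library was just inside at 27907 and the first NFIA library just outside at 32555, with the rest between 35113 and 189344. Of the 6 tumor lists, 4 held a summit there, ranked 41417 to 215035. As a share of the list, the best summit lay at 9.0% to 43.7% in GNPs, 16.6% to 76.7% in hyperplasia and 40.6% to 77.0% in the 4 tumor lists. The stages overlapped on this scale. GNPs and tumors did so only through the first GNP NFIA library (43.7%), with the other GNP libraries at 31.9% or below. The tumor lists without a summit there were the longest of all libraries, that of the second NFIA library, and the shortest, that of the first NFIB library. The call itself rests on the top 30000, since with all summits 0 regions of Map3k13 were lost. Over all 1059 regions lost in tumors against GNPs, the median was 3 of 6 tumor lists with a summit of any score, and 49.1% had at least 4. In hyperplasia 50.3% of these regions were hit in at most 1 library and 10.3% in at least 5.

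The region lost in tumors against hyperplasia was chr16:21854578-21854945, inside the gene. It was hit in 3 GNP, 5 hyperplasia and 0 tumor libraries, and 3 of 6 tumor lists held a summit of any score there. The regions chr16:21865174-21865535 and chr16:21868611-21868898 were hit in 3, 1 and 0 and in 2, 2 and 0 libraries. Summed over libraries, Map3k13 had 34, 23 and 14 top summits. Chromosome 16 held 3.62% of top summits in GNPs and 3.50% in tumors, and chromosome 17, with Sik1, 4.26% and 4.25%.

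**Figure D3:**
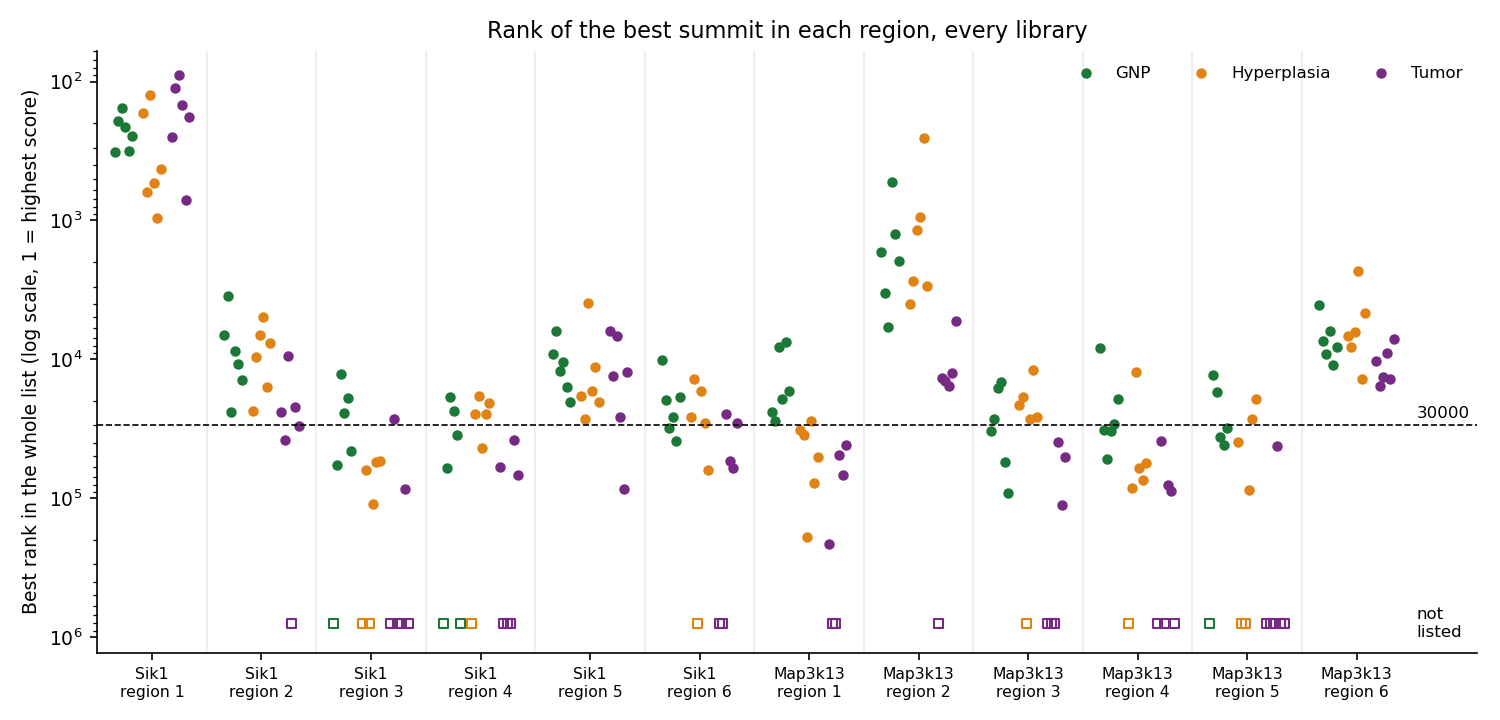
Rank of the best summit in each Sik1 and Map3k13 region in the whole list of every library (y axis, log scale, rank 1 at the top, 30000 dashed); each filled point is 1 library and open squares are libraries with no summit listed, with regions numbered from the lower coordinate up. Sik1 region 1 stays within rank 962, and Map3k13 region 1 is above the dashed line in 6 GNP libraries and in 0 tumor libraries; lists differ in length.

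At Sik2 and Map3k12 the start-site regions held in every stage. The Sik2 region chr9:51008790-51009355 was hit in 6, 6 and 5 libraries. Only the first tumor NFIA library had no top summit of Sik2. The Map3k12 region chr15:102510581-102511128 was hit in 3, 4 and 4 libraries, and all 3 GNP hits were NFIA libraries by title. The data names of the third GNP NFIA and the first GNP NFIB library disagree with the title on the target.

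Hyperplasia against GNP was the one comparison of stages that did not itself serve to choose the genes. Both of its groups entered the comparisons with tumors that did, so its p-values are not independent of the choice. Map3k13 differed by -0.53 ± 0.13 (SE) in log2(summits + 0.5), with an unadjusted limma p of 0.00511 and an adjusted p of 0.170, so it did not pass. Every hyperplasia preparation lay below every GNP preparation, as in 5.83% of genes tested, and it did so within both title dates (7 and 8 against 10 and 11, and 8 against 13). Over 23 alternatives the limma adjusted p ran from 0.146 to 1. Sik1 differed by -0.04 ± 0.07, with an adjusted limma p of 0.846. Sik2 differed by -0.16 ± 0.30 (limma, adjusted p of 0.857) and Sik3 by 0.91 ± 1.02 (limma, adjusted p of 0.765), and neither passed. In this comparison 0.175% of all genes passed (0.116% higher, 0.0582% lower), and 0 of the 4 members did.

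The NFIA and NFIB libraries were set against each other with stage as a term. Map3k13 had 1, 2 and 2 top summits in the tumor NFIA libraries and 3, 3 and 3 in the tumor NFIB libraries. In GNPs the order was not the same, with 5, 6 and 7 for NFIA and 5, 5 and 6 for NFIB. In hyperplasia NFIA libraries held 3, 3 and 4 and NFIB libraries 4, 5 and 4. Over the stages, NFIB was above NFIA by 0.31 ± 0.14 (SE) in log2(summits + 0.5), with a limma p of 0.0430 before and 0.837 after adjustment. Tumor against GNP, the stage difference was 0.88 ± 0.28 less negative in NFIB than in NFIA libraries, with a limma p of 0.00671 before and 1 after adjustment. With 0 of 8587 genes called for target (0% of genes, 500 at an unadjusted p under 0.05) and 0 for this interaction (0%, 332 unadjusted), no difference between the targets passed at these genes. At the other genes the NFIB minus NFIA difference was -0.07 for Sik1, 0.34 for Sik2 and -0.10 for Sik3, with adjusted limma p-values of 0.956, 0.877 and 1. Their tumor-against-GNP interaction was -0.14, 0.53 and 0.73, each with an adjusted limma p of 1.

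The genes whose summit numbers varied most like those of Sik1 over the 9 preparations, among 1541 genes with a mean of at least 8, were Agbl4 (Pearson r = 0.964), Grip1 (0.960), Tcf7l2 (0.955), Scrt2 (0.947) and Homer2 (0.941). For Map3k13 they were Arhgap28 (0.953), Ctnnd2 (0.943), Lsamp (0.940), Ulk4 (0.938) and Grip1 (0.933), of 1542. These are descriptions over preparations that fall into 3 stages, and no p is given. Grip1, a scaffold protein of glutamate receptors, was on both lists, with 18.7 ± 0.577 top summits in GNPs, 17 ± 1 in hyperplasia and 11.3 ± 0.577 in tumors. Tcf7l2, a transcription factor of the Wnt pathway, had 14 ± 1, 14 ± 2 and 8 ± 1, close in shape to Sik1. Agbl4, a carboxypeptidase gene for tubulin, went further, from 15 ± 2 and 12.3 ± 1.53 to 2 ± 1 (SD, n = 3 preparations).

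The pathways around the kinases were followed in 52 other genes, of which 42 could be tested. At an adjusted p of 0.05 in limma, 0 of the 42 passed in any of the 3 comparisons of stages. At an unadjusted p under 0.05 there were 5 for hyperplasia against GNPs (11.9%, beside 13.4% of all genes tested), 9 for tumors against GNPs (21.4% beside 14.8%) and 4 for tumors against hyperplasia (9.52% beside 11.3%). Upstream of the salt-inducible kinases, in the LKB1 and protein kinase A group, 11 genes were tested (5 higher and 6 lower in tumors than in GNPs) and the median tumor-against-GNP difference was -0.16 in log2(summits + 0.5), beside 0 for all genes. The lowest 2 were Prkar1a, a regulatory subunit of protein kinase A (5.33 ± 0.577 to 3 ± 1, limma, adjusted p of 0.174), and Cab39, which holds LKB1 active (7 ± 1.73 to 4 ± 1.73, limma, adjusted p of 0.296). The highest were Gnas, the stimulatory G protein (4 to 5.67), and Prkar1b (16.3 to 19.7).

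Downstream of the salt-inducible kinases, among CRTCs, class IIa deacetylases and Creb1, the factor that CRTCs coactivate, 7 genes were tested (4 higher, 3 lower), with a median of 0.06. Hdac4, a class IIa deacetylase, had the most summits of the group, with 22 ± 2.65 in GNPs, 27.7 ± 4.73 in hyperplasia and 29 ± 2 in tumors (limma, adjusted p of 0.245 for tumor against GNP). Hdac9 followed it at the high end (5.67 to 7.33), and Hdac5 (5 to 3.67) and the CREB coactivator Crtc3 (10 to 8.33) were at the low end. Of the AMPK-related kinases 10 were tested (5 higher, 5 lower), with a median of -0.06. Nuak2, a relative of the salt-inducible kinases that is also switched on by LKB1, had 5, 8 and 7 top summits in GNPs, 4, 3 and 5 in hyperplasia and 3, 2 and 3 in tumors, with an adjusted limma p of 0.0884. Its tumor preparations all lay below its GNP preparations, as in 5.90% of all genes tested. Mark1 was next (2 to 1.33), while Mark4 (1 to 3.67) and Prkaa2 (3.67 to 6.33) were at the high end.

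On the side of Map3k13, 4 mixed lineage kinases were tested, with a median of -0.22. Map3k9 went from 3 to 2.33 and Map3k21 from 3 to 2, while Map3k20 went from 4 to 5 and Map3k11 had 2 in every preparation. Of the JNK cascade 10 genes were tested, 3 higher and 7 lower in tumors than in GNPs, with a median of -0.36. Jun, the transcription factor that JNK phosphorylates, had 7, 9 and 7 top summits in GNPs, 13, 16 and 17 in hyperplasia and 15, 13 and 19 in tumors. GNPs did not overlap with either later stage (every preparation was higher in 5.28% of all genes tested for hyperplasia and 6.16% for tumors), and the adjusted limma p was 0.0943 for hyperplasia and 0.0602 for tumors against GNPs, short of the threshold. The stress-response factor Atf3 (4 to 1.33) and the JNK kinase Map2k4 (2.67 to 1) were lowest, with spreads that left adjusted limma p at 0.274 and 0.460. Mapk10, the neuronal JNK, was second highest (4.33 to 5.67).

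**Figure D4:**
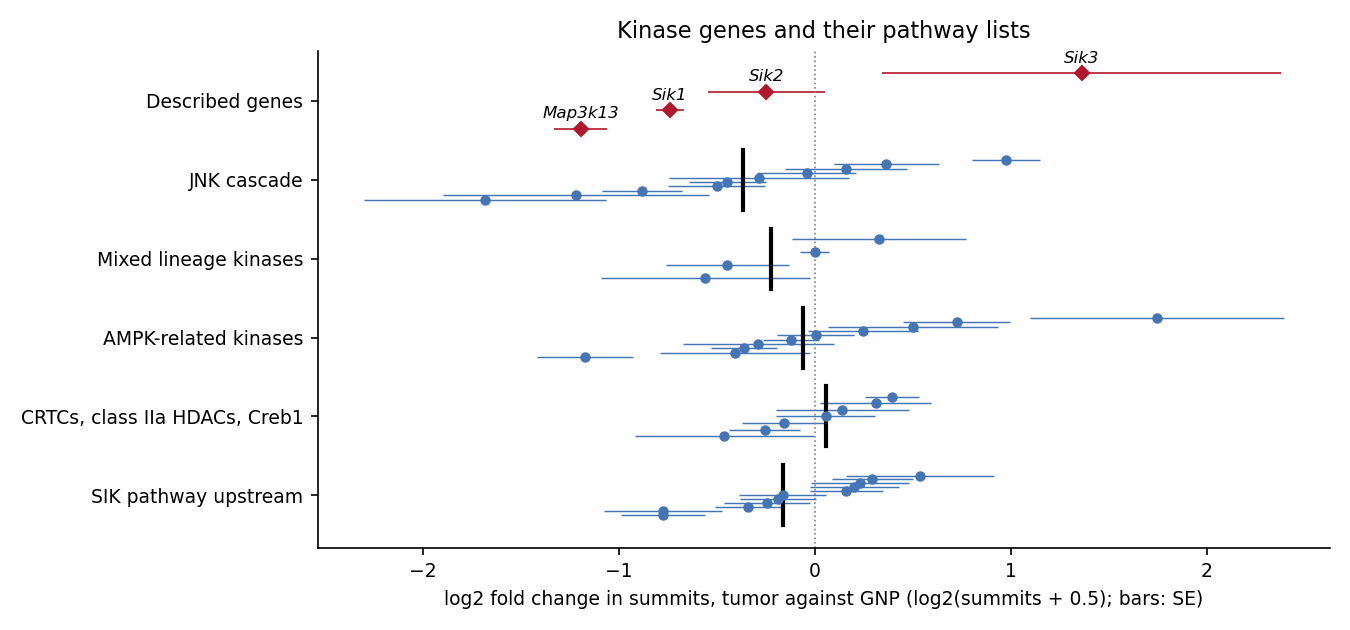
Tumor-against-GNP difference in log2(summits + 0.5) (x axis, bars are SE) for the 4 kinase genes that could be tested (red diamonds, described without a test) and the tested genes of each pathway list (blue points, black bar at the list median). The medians lie between -0.36 and 0.06, and none of the list genes passed the limma test.

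Summits near marker genes do not measure how many cells of a type were present, but they were summed to see whether they moved with the stages. The 7 granule lineage markers had 44 to 46 top summits per preparation in GNPs, 30 to 35 in hyperplasia and 35 to 40 in tumors. The 5 microglia and macrophage markers had 2 to 4, 3 to 7 and 3 to 5, with Aif1 at 0 in every preparation. The 6 astrocyte and Bergmann glia markers had 24 to 34, 29 to 40 and 22 to 32, with Aqp4 and S100b at 0, and the 6 oligodendrocyte markers found had 32 to 38, 28 to 41 and 34 to 35. The 6 vascular and meningeal markers had 24 to 37, 21 to 26 and 32 to 34. Only the summed level of the granule markers was lower in both later stages, with 0 of 7 called and 3 of 7 fitted higher in tumors than in GNPs. Pax6 (16 to 8 to 10) and Neurod2 (7.67 to 3.67 to 3.33) were lower, while Atoh1, the defining factor of GNPs, had 5.33, 6 and 8.33. The part of these values in those of Map3k13 and Sik1 was not tested. In bulk samples fewer cells that carry a site and weaker occupancy per cell cannot be told apart.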

How the data were processed

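The submitters' processing notes name Bowtie2, MACS2 and the build mm10. Versions, any control library and the choice of p or q values for the score are not given in the sources used here. Deposited files list, per library, the summits of the authors' peaks with a −log10 p or q value as score, and depth is unknown.

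Coordinates are mm10, 1-based, with gene spans, IDs and start windows from RefSeq tables of build GRCm38.p6. Score ties at the last place were broken at random (seed 1). Summits of both libraries of a preparation were summed. Stages were compared with limma 3.58.1 in R 4.3.3 (trend, empirical Bayes) on log2(summits + 0.5), fitted once over 9 preparations with stage as the only term, with Benjamini-Hochberg adjustment over all 8587 genes at 0.05. Targets and the interaction were fitted per library, keeping genes that averaged 1 summit or more. The scripts were tested on simulated data. Python 3.11.15, numpy 2.4.6, pandas 2.3.3 and matplotlib 3.10.9 were used.

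The members and lists were chosen with earlier results of these data known. Named were the 5 members, all regions lost or hit in all 18 libraries at them, the 5 genes most like Sik1 and Map3k13 each, and, as no list gene passed, the 2 largest and 2 smallest tumor-against-GNP differences per list. Alternatives changed the number of summits kept, score minimum, ties, distance, pseudocount, filter, target, preparations, chromosome 6, block and title date.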

Additional observations from a re-analysis of the deposited data

How the results depend on the processing

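Sik1 and Map3k13 were lower in tumors than in GNPs and than in hyperplasia under all 22 alternatives run on each. Both genes were chosen for this direction and the alternatives recount the same libraries, so the shared sign is a description and no support. Tumor against GNP, Sik1 ran from -1.31 (score of at least 5) to -0.52 (15000 top summits) and Map3k13 from -1.61 (NFIA alone) to -0.73 (NFIB alone) on the log2 scale. Tumor against hyperplasia, Sik1 ran from -0.74 to -0.43 and Map3k13 from -1.09 to -0.41. With a score of at least 5 the median of all genes was itself -0.46 against GNPs and -0.38 against hyperplasia, and with complete lists scaled to equal totals it was -0.15 against GNPs. Relative to that shift no direction of these 2 genes turned. Sik3 turned to -0.58 against GNPs with a score of at least 5.

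The number of genes called depended on most choices, and the cause was not tested. For hyperplasia against GNP 15 genes passed, and 43 did with 15000 top summits, 0 with all summits scaled, with a score of at least 5, with every summit within 20 kb or without chromosome 6, 2 with other ties or a title date term, 3 with a pseudocount of 2, 83 without the filter, 25 with NFIA alone and 55 with NFIB alone. For tumor against GNP 21 passed, and 46 did with 15000 top summits, 314 with all summits scaled, 0 with a score of at least 5, 39 with the nearest gene within 20 kb, 124 without the filter, 63 with NFIB alone and 10 without chromosome 6. For tumor against hyperplasia 5 passed, and 10 did with 15000 top summits, 0 with a score of at least 5, 3 with every summit within 20 kb, 41 without the filter, 10 with NFIA alone, 17 with NFIB alone, 2 without chromosome 6 and 8 without the second hyperplasia NFIA library, its NFIB partner counted again, an alternative chosen after seeing the data. For NFIB against NFIA 0 passed, and 1 did with 15000 top summits, 1 without the filter and 6 in the 12 libraries whose names agree on the target. In those 12 libraries, also chosen after seeing the data for the interaction, the interaction was called in 45 genes between GNPs and hyperplasia, 33 between GNPs and tumors and 38 between hyperplasia and tumors, beside 0 in all 18, and no member passed. Leaving out 1 preparation at a time gave 1 to 10, 1 to 25, 1 to 6 and 0 to 2 genes in the 4 comparisons in this order. The lowest counts came without hyperplasia preparation 2 or tumor preparation 1 for the first comparison, without tumor preparation 1 for tumor against GNP, and without GNP or hyperplasia preparation 3 for tumor against hyperplasia. The 2 genes for target came without tumor preparation 3.

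Of the regions at the 5 genes, 1 lost in hyperplasia against GNP became 0 with 15000 top summits, 2 with all summits (1 at Sik1, 1 at Sik3) and 0 with 6 of 6 against 0 of 6, and 1 lost in tumors against hyperplasia became 0 with 15000 top summits and with 6 of 6 against 0 of 6, and with all summits the 1 was at Sik1. With 15000 top summits or all summits Map3k13 thus had 0 lost regions in any contrast. The 1 lost in tumors against GNPs became 4 with all summits, 3 of them at Sik1 and 1 at Sik3, and with 15000 top summits the 1 lost region was at Sik1. With 15000 top summits 3.19%, 2.74% and 1.28% of all regions were lost (hyperplasia against GNP, tumor against GNP, tumor against hyperplasia). In that order it was 0.933%, 1.07% and 0.647% with all summits, and 0.46%, 0.364% and 0.0691% with 6 of 6 against 0 of 6. Leaving out a preparation gave 1 to 2 lost in each contrast, and 0 to 1 gained against GNPs. Over all regions it gave 2.9% to 5.5%, 2.6% to 5.41% and 1.12% to 3.77% lost, and 2.25% to 5.59% gained against GNPs.

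Members that did not pass changed sign in some settings. Hyperplasia against GNP, Sik2 was 0.18 with every summit within 20 kb and Sik3 -0.19 without GNP preparation 3 (up to 1.68 without hyperplasia preparation 3). NFIB against NFIA, Sik1 was 0.040 with 15000 top summits, and without 1 preparation it ran from -0.13 to 0.065, while Sik3 ran from -0.26 to 0.087 (0.061 without hyperplasia preparation 2), and Map3k13 was -0.23 with 15000 top summits.

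Whether preparation numbers pair the samples could not be settled. Deviations of GNP and hyperplasia preparations with the same number correlated at 0.0432, 0.0168 and 0.0632. For tumors it was 0.0202 to 0.0804 with GNPs and 2.16e-05 to 0.0471 with hyperplasia. Deviations of the NFIA and the NFIB library of the same preparation correlated at -0.0819 to 0.0755, so that summed libraries did not deviate together. Since even these correlations were this low, low values between stages cannot show that the numbers do not pair samples. With the number as a replicate block 0, 1 and 1 genes passed in the 3 stage comparisons, 0 for target and 0 for the interaction, and Map3k13 had an adjusted limma p of 0.191 for hyperplasia against GNP. Summit lists without depth limit all values: a site below the score threshold of a library is not listed, and the rank of a site also moves with the sites around it and with the length of the list.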
